A study of Homo sapiens with 6 samples.

Results

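Thymidine glycol (Tg), an oxidised form of thymidine, was mapped in a stretch of chromosome 20 that holds CDH4, its neighbour TAF4 and the 300 kb on either side of CDH4 (hg38, 60952261 to 62240617). A deposited site belonged to it when the mean of its start and end lay inside. It took in 29 of the 9373 sites of NTHL1-/-,NEIL1-/- cells and 19 of the 3688 sites of wild-type cells. Both genotypes are HEK293T, a cell line from human embryonic kidney with the large T antigen of SV40, and neither was given a further treatment. In the first, the genes of the DNA glycosylases NTHL1 and NEIL1 are both disrupted; the second carries both genes, and whether the knockout line is a single clone is not given in the sources used here. NTHL1 protein was coupled to fragmented DNA where it removes Tg, and the coupled fragments were sequenced, a method called DPC-Seq. The series has 6 libraries: 2 coupled libraries and 1 input for each genotype. Only 1 site list per genotype was used, with no value per library, so no difference below has a spread between replicates or a test. The gene was chosen by its number of sites in both lists. Its counts, and the spacing, distances and sharing bound up with them, are therefore a description that supports nothing further.

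CDH4 encodes R-cadherin, a classical cadherin. Such proteins span the cell membrane, bind the same or a related cadherin on the next cell in the presence of calcium, and are tied to actin through catenins. R-cadherin is best known from the retina, the brain and the developing kidney. TAF4 encodes a subunit of TFIID, the complex that places RNA polymerase II at promoters, where it pairs with TAF12. Tg blocks DNA polymerases, and NTHL1 and NEIL1 are glycosylases that remove it in the opening step of base excision repair.

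CDH4 (gene 1002) spans 688 kb, from 61252261 to 61940617, and is read towards higher coordinates. TAF4 (gene 6874) spans 91.1 kb, from 61974798 to 62065881, and is read the other way, so the 2 genes point at each other across 34.2 kb. The bases under the sites themselves are not shown, since no genome sequence was used here. The RefSeq promoter table (GRCh38.p14, 250 bases before to 50 after a start) has 14 windows for 13 genes of the stretch. No window touched a site of either list, where 0.222% of all 35116 windows touched a NTHL1-/-,NEIL1-/- site and 0.0968% a wild-type site. The 2 windows of CDH4 start at 61499171 and 61599511, well inside the gene. The table has no window at its annotated start, 61252261, so the promoter there was not examined. The windows below are the CDH4 window closest to a site, the TAF4 window, and the window closest to any site of the stretch. They are printed 5′ to 3′ with thymines, the base that becomes Tg, in capitals; thymines of the other strand lie opposite each a.
CDH4, chr20:61499171-61499470, plus strand: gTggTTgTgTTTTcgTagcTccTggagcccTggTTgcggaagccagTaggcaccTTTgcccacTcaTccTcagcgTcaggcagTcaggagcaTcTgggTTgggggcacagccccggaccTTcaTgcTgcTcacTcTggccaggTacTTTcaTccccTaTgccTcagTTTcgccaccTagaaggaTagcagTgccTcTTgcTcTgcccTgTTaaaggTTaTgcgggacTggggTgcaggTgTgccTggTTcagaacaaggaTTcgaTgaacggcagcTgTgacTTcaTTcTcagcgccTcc
TAF4, chr20:62065832-62066131, minus strand: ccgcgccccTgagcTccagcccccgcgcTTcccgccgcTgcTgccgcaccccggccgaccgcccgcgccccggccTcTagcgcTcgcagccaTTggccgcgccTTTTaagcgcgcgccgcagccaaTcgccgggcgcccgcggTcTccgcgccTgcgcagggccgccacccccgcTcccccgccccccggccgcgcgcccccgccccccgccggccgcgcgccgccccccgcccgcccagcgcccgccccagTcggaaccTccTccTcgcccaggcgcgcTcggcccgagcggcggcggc
LOC105369209, chr20:62227993-62228292, plus strand: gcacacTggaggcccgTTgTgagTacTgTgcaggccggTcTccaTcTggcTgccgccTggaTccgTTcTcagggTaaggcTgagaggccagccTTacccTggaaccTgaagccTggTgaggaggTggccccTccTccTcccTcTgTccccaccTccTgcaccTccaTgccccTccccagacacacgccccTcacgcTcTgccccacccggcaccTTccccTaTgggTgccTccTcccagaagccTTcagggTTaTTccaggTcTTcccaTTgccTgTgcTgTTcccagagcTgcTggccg
The TAF4 window has 25 thymines and 20 adenines in 300 bases. Its share of A and T is 15.0%, where the median window has 41.3%, and only 0.285% of all windows are as low or lower. The CDH4 window has 77 thymines (A and T 42.7%) and the window of the non-coding gene LOC105369209 has 65 (35.3%). The closest site lay 6450 bp from the CDH4 window in NTHL1-/-,NEIL1-/- cells and 6626 bp in wild type. From the TAF4 window it lay 21.6 kb and 163 kb away, and from the LOC105369209 window 750 bp and 996 bp away, in the same order of genotypes.

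The body of CDH4, 688 kb of the 1288 kb examined, held most of the sites, and the body of TAF4 held none. CDH4 held 20 sites in NTHL1-/-,NEIL1-/- cells (exact 95% counting interval 12.2 to 30.9) and 15 in wild type (8.40 to 24.7). This is 2.91 and 2.18 sites per 100 kb. The whole of chromosome 20 up to its last annotated gene had 0.525 and 0.199 per 100 kb. The midpoint of CDH4 lies 2.73 Mb before the end of that last gene. Whether the density of CDH4 goes with this place was not tested. Across the genome 14.0% of protein-coding genes held a NTHL1-/-,NEIL1-/- site and 5.88% a wild-type site. CDH4 makes up 1.07% of the annotated chromosome but took 5.92% of its NTHL1-/-,NEIL1-/- sites and 11.7% of its wild-type sites. The 300 kb before the gene held 7 and 3 sites (2.81 to 14.4 and 0.619 to 8.77). This is 2.33 and 1.00 per 100 kb, so in the knockout list the density was not confined to CDH4. The 209 kb after it, without TAF4, held 2 and 1 (0.242 to 7.22 and 0.0253 to 5.57), or 0.957 and 0.479 per 100 kb. Intervals here and below cover counting error only.

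**Figure D1:**
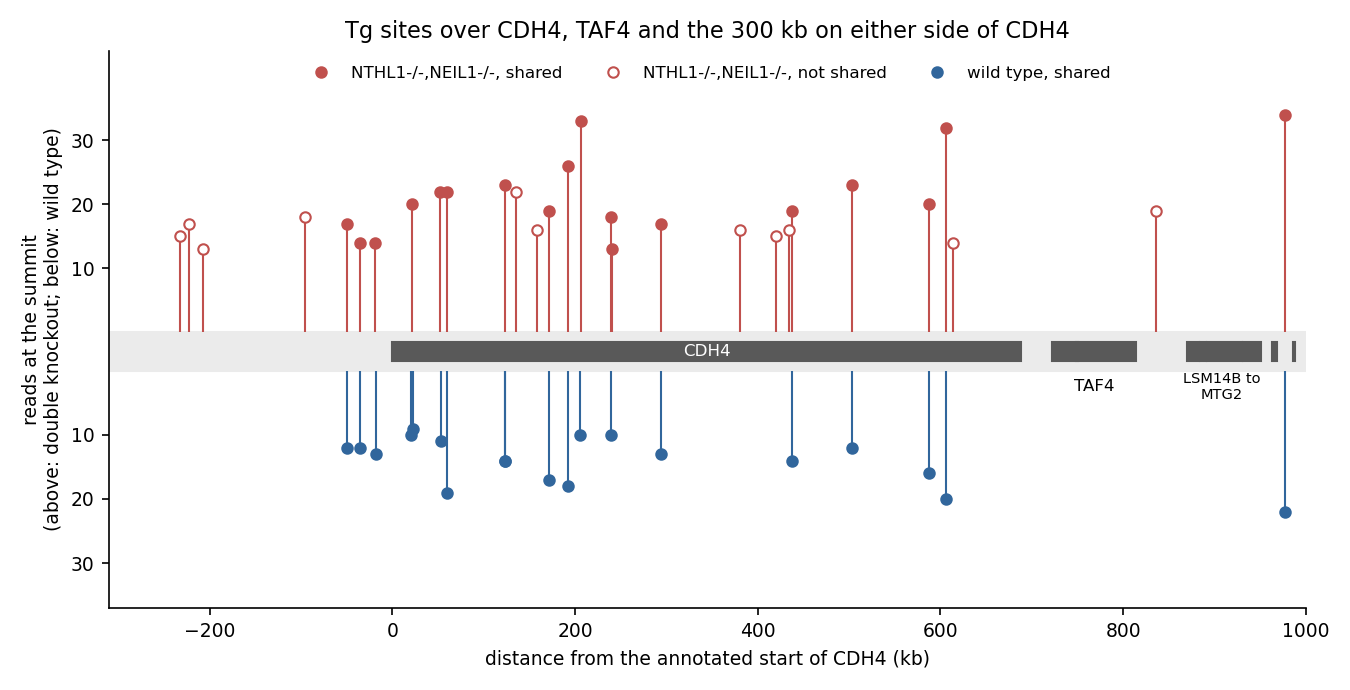
Reads at the summit of each site (vertical axis) against the distance of its midpoint from the annotated start of CDH4 in kb, with NTHL1-/-,NEIL1-/- sites above and wild-type sites below the bar of protein-coding genes. Filled points overlap a site of the other list; the 11 open points, all above the bar, do not, and no site stands over TAF4.

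All 19 wild-type sites of the stretch overlapped a NTHL1-/-,NEIL1-/- site. Sharing means an overlap of at least 1 bp. Of the NTHL1-/-,NEIL1-/- sites 18 of 29 were shared (62.1%, exact binomial 95% interval 42.3% to 79.3%), against 28.3% of that whole list. Of the wild-type sites 100% were shared (82.4% to 100%), against 75.3% of that list. Inside CDH4 the counts were 14 of 20 and 15 of 15, and before it 3 of 7 and 3 of 3. When sharing required an overlap of 50% of both sites, 11 of 29 (37.9%) and 11 of 19 (57.9%) were shared, against 21.5% and 54.7% of the whole lists. Among sites with a −log10 q of at least 5 in both lists it was 12 of 24 and 12 of 12, against 23.2% and 79.9%. Sites of a gene are not independent of each other, so these intervals are too narrow and do not serve as a test.

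Sharing rises with the strength of a site, so it was also read within 4 equal groups of each list by q. Of the NTHL1-/-,NEIL1-/- members, 8 of 9 were shared in the strongest group (list 60.9%), 8 of 11 in the next (27.8%), 2 of 7 in the one after (14.7%) and 0 of 2 in the weakest (9.56%). The wild-type members, from the strongest group to the weakest, were shared in 5 of 5 (91.9%), 7 of 7 (80.0%), 4 of 4 (67.8%) and 3 of 3 cases (61.4%). The strongest member ranked 293 by q in the NTHL1-/-,NEIL1-/- list and 244 in the wild-type list. The median −log10 q of the members was 7.61 and 5.11, against 5.88 and 4.59 over the whole lists.

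Reads at the summit were recovered from the deposited fold enrichment (reads over the caller's background) and p of each site. Upstream of the gene, 3 small shared sites came in a row. At 61202600 to 61202939 the summit had 17 reads in NTHL1-/-,NEIL1-/- cells and 12 in wild type. At 61216373 to 61216735 it had 14 and 12 reads, and at 61233584 to 61233913 14 and 13. None of these 3 was wider than 363 bp in the NTHL1-/-,NEIL1-/- list.

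Inside the gene the first site was also the widest of the stretch. In NTHL1-/-,NEIL1-/- cells it ran over 2285 bp, from 61273087 to 61275371, with 20 reads and a fold enrichment of 9.11. In wild type the same place held 2 separate sites, of 246 bp and 243 bp, with 10 and 9 reads and folds of 6.11 and 5.02. The wild-type sites cover the left end and the middle of the wide one. The next site, at 61304773 to 61305205, had 22 reads and a fold of 6.87, against 11 reads and a fold of 3.45 in wild type. Its −log10 q was 10.8 and 1.99, and the second is the lowest of the wild-type members. Its neighbour at 61311944 to 61312295 had 22 and 19 reads, with folds of 6.07 and 6.70.

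A second merged place followed at 61375251 to 61376202. It was 1 site of 952 bp with 23 reads in NTHL1-/-,NEIL1-/- cells, and 2 sites of 391 bp and 270 bp with 14 reads each in wild type. The summit of the merged site lay 13 bp from that of the second wild-type site and 601 bp from that of the first. At 61424023 to 61424555 the reads were 19 and 17, with folds of 5.98 and 7.54. The site at 61443789 to 61445232 was again wide, 1444 bp against 781 bp in wild type. It had 26 and 18 reads, and its folds were 5.89 and 8.61, the highest of the wild-type members. Both lists thus marked this place, with summits 487 bp apart.

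Of all NTHL1-/-,NEIL1-/- members, the one at 61457998 to 61458864 had the lowest q (−log10 q 17.9), with 33 reads and a fold of 8.12. Its wild-type partner was among the weakest, with 10 reads, a fold of 4.02 and a −log10 q of 2.52. At 239.9 kb into the gene the order was turned round, with 1 wild-type site and 2 sites in the knockout. The NTHL1-/-,NEIL1-/- sites, of 390 bp and 387 bp, had 18 and 13 reads, and the wild-type site of 678 bp that bridged them had 10. The plot of these places shows that the 2 lists marked the same DNA and divided it differently.

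**Figure D2:**
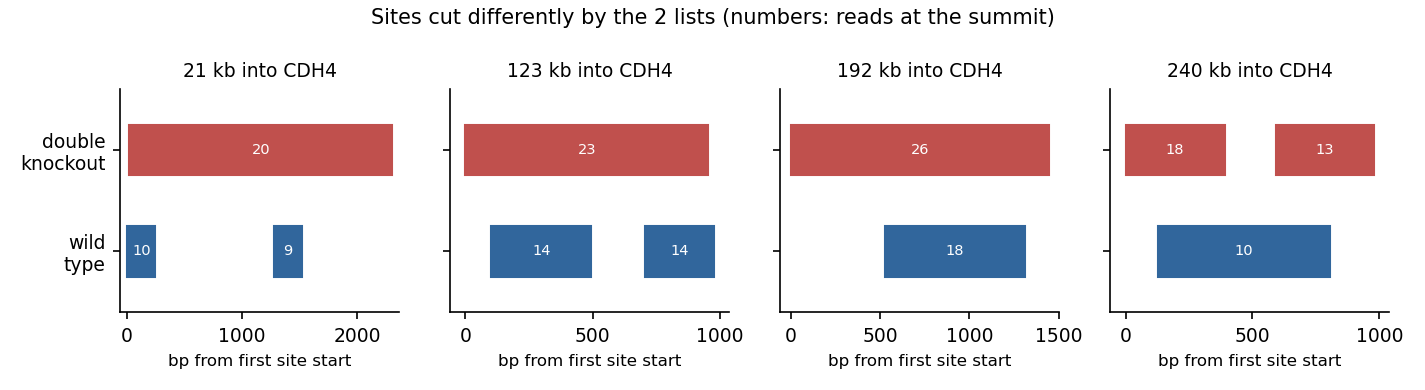
Extent in bp of the sites at 4 places in CDH4, NTHL1-/-,NEIL1-/- sites in the upper row and wild-type sites in the lower, with the reads at each summit printed on the bar. At 2 places 1 knockout site spans 2 wild-type sites, at the third a knockout site of 1444 bp contains a wild-type site of 781 bp, and at the fourth 1 wild-type site bridges 2 knockout sites.

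Further along, the shared sites were more widely spaced. The site at 61545798 to 61546531 had 17 reads in NTHL1-/-,NEIL1-/- cells and 13 in wild type. At 61689749 to 61690337 they were 19 and 14. The site at 61754923 to 61755842 had 23 and 12 reads. In the knockout list it lay across the right-hand boundary of the antisense gene CDH4-AS1 at 61755073, with its midpoint outside that gene. Its wild-type partner, at 61755348 to 61755792, lay wholly outside CDH4-AS1. The last shared sites of CDH4 stood close together, at 61839211 to 61839997 (20 and 16 reads) and at 61857751 to 61858534 (32 and 20 reads). The last had many reads but only a moderate fold, 4.04 and 4.97, and its background was the highest of the stretch in both lists, 7.17 and 3.22 reads. Elsewhere the background was ordinary: over the CDH4 sites its median was 2.55 and 1.74 reads, against 2.65 and 1.74 over the whole lists.

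The only shared site after CDH4 was strong and broad in both genotypes. It ran over 1680 bp, from 62229042 to 62230721, in NTHL1-/-,NEIL1-/- cells and over 1288 bp in wild type, and had 34 and 22 reads, the most of the members in each list. It lies in LOC105369209, between HRH3, which encodes a histamine receptor, and OSBPL2, which encodes an oxysterol-binding protein.

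The 11 NTHL1-/-,NEIL1-/- sites without a wild-type partner had fewer reads than the shared ones at the median, with overlapping ranges. Their median was 16 reads and a width of 421 bp, with folds of 3.27 to 6.32. Divided by 1.69, the ratio of the lowest backgrounds of the lists, their reads were 7.68 to 13.0. Wild-type members had 9 to 22 reads, and whether these places lack Tg in wild type was not tested. The 18 shared sites had a median of 20 reads and 662 bp, with folds of 4.04 to 9.11. In the whole list the medians were 15 reads and 364 bp for unshared sites, and 23 reads and 590 bp for shared sites. Of the 11, 6 lay in CDH4. The strongest of these, at 61387190 to 61387627, had 22 reads and a fold of 6.07, and its midpoint was 11.3 kb from the closest wild-type site. The others in the gene had 14 to 16 reads, at 61410642, 61632584, 61671945, 61686323 and 61865355. Before the gene, 4 unshared sites with 13 to 18 reads began at 61019288, 61029396, 61044986 and 61156679. The first 3 of these were 157.5 kb to 183.3 kb from any wild-type site. The unshared site after the gene, at 62087724 to 62088432, had 19 reads. Over all 11, the midpoint lay a median of 45.9 kb from the closest wild-type site, against 159 kb over all unshared sites of that list. A shorter distance comes with the choice of a gene that has many wild-type sites.

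At no shared site did the reads differ between the genotypes by more than counting error. Only places called in both lists could enter, which leaves out the 11 knockout sites without a partner. NTHL1-/-,NEIL1-/- reads were divided by 1.69, the ratio of the lowest backgrounds of the lists, which stands in for depth. The median ratio over the 19 wild-type sites and their partners was 0.913 (range 0.636 to 1.95), against 0.940 over all 2776 shared wild-type sites. The 19 pairs have 17 distinct knockout sites, since 2 knockout sites each met 2 wild-type sites and were counted with both. The ratio was above 1 at 6 and below 1 at 13 wild-type sites, and the counting interval of each of the 19 held 1. A ratio above 1.5 was found at 1 of 19 (5.08% of all shared sites) and a ratio below 1 over 1.5 at 2 of 19 (10.2%). The 1 above was the site at 61457998, with 1.95 (0.939 to 4.44). The lowest were 0.636 (0.277 to 1.47) at 61233584 and 0.660 (0.325 to 1.35) at 61424023. At these read numbers a change inside such an interval was not detectable at a single site.

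**Figure D3:**
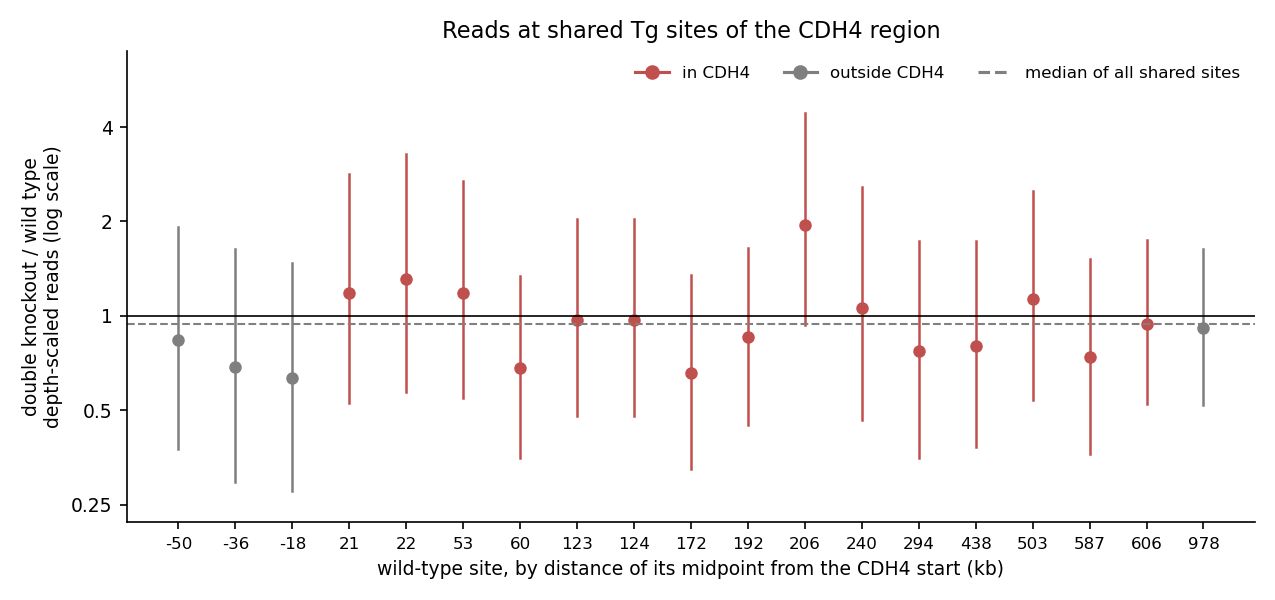
Depth-scaled NTHL1-/-,NEIL1-/- over wild-type reads (log axis) at the 19 wild-type sites that share a place with the other list, in order along the chromosome; bars are exact 95% intervals for counting error. Every bar crosses 1, and the medians of the stretch (0.913) and of all shared sites (0.940, dashed line) are close together.

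Sites of the stretch were somewhat wide in the knockout list. Their median width was 477 bp (330 to 2285 bp) in NTHL1-/-,NEIL1-/- cells, against 409 bp over that list, and 419 bp (243 to 1288 bp) in wild type, against 380 bp. Inside CDH4 the medians were 561 bp and 419 bp. Shared knockout sites had a median of 662 bp in the stretch and 590 bp in the whole list, and unshared ones 421 bp and 364 bp. Shared sites made up 62.1% of the knockout sites of the stretch and 28.3% of that list. A width of at least 700 bp, a limit chosen after the values were seen, was reached by 11 of 29 members (37.9%) in the knockout list, where 15.5% of all sites reach it. In wild type 2 of 19 (10.5%) reached it, where 12.9% do. The NTHL1-/-,NEIL1-/- site was the wider in 15 of 19 pairs, and it was wider in 83.2% of all shared pairs. Among the 19 pairs, 2 wide knockout sites were counted with 2 wild-type sites each. The median ratio of widths was 1.41 here, 1.76 within CDH4 and 1.35 overall. Summits of a pair were a median of 165 bp apart (7 to 655 bp), against 91.0 bp over all pairs.

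**Figure D4:**
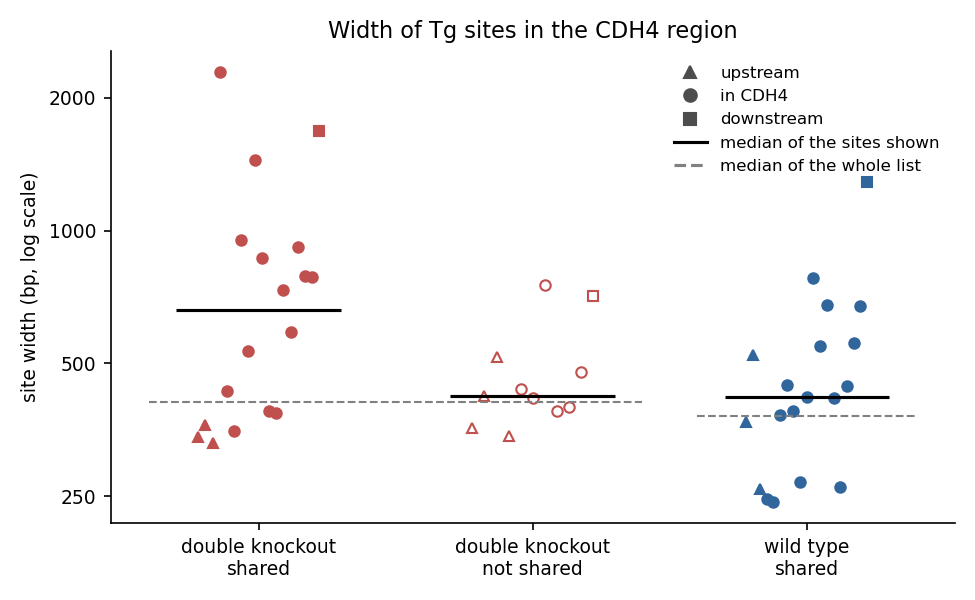
Width of each site in bp (log axis) for shared and unshared NTHL1-/-,NEIL1-/- sites and for wild-type sites, with the marker giving the place relative to CDH4. Shared knockout sites have a median of 662 bp and unshared ones of 421 bp (black lines). Dashed lines mark the whole-list medians of 409 bp and 380 bp, taken over shared and unshared sites together.

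More sites of CDH4 lay before its midpoint than after it, by a margin within counting error. Before the midpoint lay 12 of 20 NTHL1-/-,NEIL1-/- sites (60.0%, 36.1% to 80.9%) and 11 of 15 wild-type sites (73.3%, 44.9% to 92.2%), and both intervals hold an even split. These counts take apart 2 wild-type pairs and 1 knockout pair that each met a single site of the other list. Such sites are not independent, and 1 of the wild-type pairs lies in the first of the 10 parts below. The median site lay at 34.9% and 28.0% of the way from the start. Of the 10 equal parts of the gene, the third held the most NTHL1-/-,NEIL1-/- sites, 4, and the first held the most wild-type sites, 4. The sixth held 1 and 0, and the last held none in either list. Of the 6 unshared sites, 2 lay before the midpoint and 4 after it. No site lay within 20 kb after the start of the gene.

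**Figure D5:**
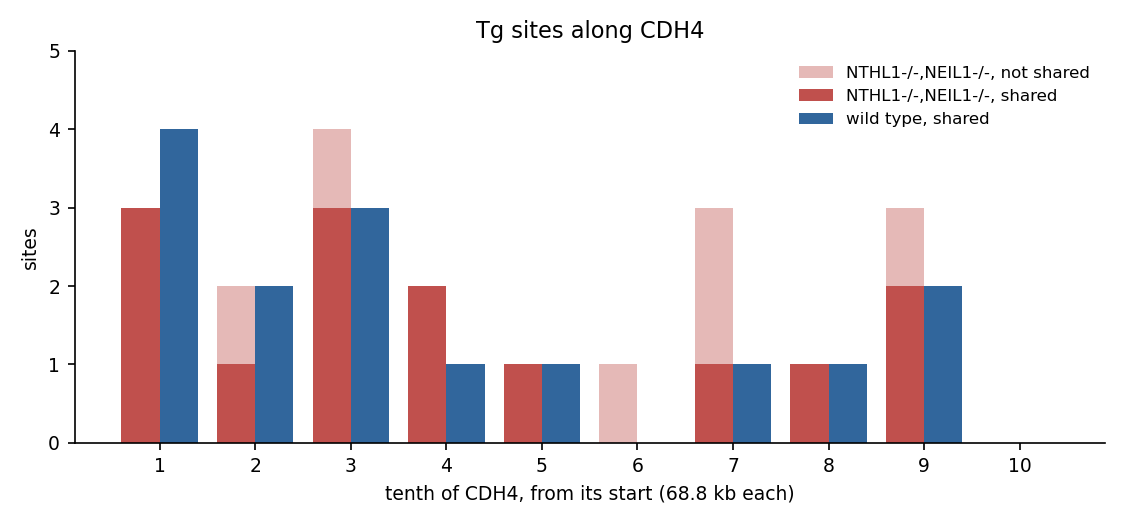
Number of sites (vertical axis) in each of 10 equal parts of CDH4 from its start, NTHL1-/-,NEIL1-/- bars on the left and wild-type bars on the right of each pair, with the pale part of a bar for unshared sites. The first 3 parts together hold 9 sites of each list, the third holds the most knockout sites (4), the first the most wild-type sites (4), and the last is empty.

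Neighbouring sites in CDH4 were a median of 20.2 kb apart in NTHL1-/-,NEIL1-/- cells (0.592 to 86.8 kb) and 32.3 kb apart in wild type (0.544 to 144 kb). On chromosome 20 as a whole the median distances were 84.6 kb and 182 kb. Close spacing comes with the choice of a gene that has many sites. The closest pairs were the 2 knockout sites at 61491742 and 61492335 and the 2 wild-type sites at 61375353 and 61375958, and each of these pairs met a single site of the other list. Gaps under 20 kb made up 9 of 19 in the knockout list and 5 of 14 in wild type.

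TAF4 lay in the longest empty stretch of the window. No NTHL1-/-,NEIL1-/- site lay between 61865832 and 62087723 (222 kb), and no wild-type site between 61858478 and 62229287 (371 kb). These spaces take in the last 74.8 kb and 82.1 kb of CDH4, all of TAF4, and 21.8 kb and 163 kb beyond TAF4. Such distances are common: 22.8% and 34.6% of the distances between neighbouring sites on chromosome 20 were as long. A gene of the length of TAF4 without a site is also common, since of the 5165 protein-coding genes of 45.5 to 182 kb, 77.4% had no site in either list. LSM14B, PSMA7, SS18L1, MTG2 and HRH3, the protein-coding genes that follow TAF4, held no site either. OSBPL2 starts inside the window, and its only site in each list, at 62278162 to 62278998 in NTHL1-/-,NEIL1-/- cells, fell 338 kb from CDH4 and so outside it, with 30 and 16 reads. On the other side the closest sites outside were 469 kb away in both lists, with 19 and 17 reads. The outermost members inside the window were 233 kb before and 289 kb after CDH4 in the knockout list, and 49.5 kb before and 289 kb after it in wild type.

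Of the 604 protein-coding genes of 344 to 1377 kb, CDH4 ranked 1 in NTHL1-/-,NEIL1-/- and 2 in wild-type site density. The median gene of this size held 1.0 and 0 sites. The 5 genes most like CDH4, by the distance between log2 site densities of both lists, were PTPRN2 (distance 0.10), GSE1 (0.80), ADARB2 (0.86), HDAC4 (0.96) and RBFOX3 (1.10). In the same order they begin at 157539056 of chromosome 7, 85169512 of 16, 1177313 of 10, 239048168 of 2 and 79089345 of 17. Whether place along the chromosome goes with their density was not tested. PTPRN2, the gene of a receptor-type phosphatase relative found on secretory granules, held 29 and 24 sites, or 2.77 and 2.29 per 100 kb. HDAC4, which encodes a histone deacetylase, held 7 and 4 sites. The other genes lay between 1.97 and 2.14 per 100 kb in the knockout list and between 1.04 and 1.38 in wild type. Among the knockout sites of these genes 58.6% were shared in PTPRN2, 57.1% in HDAC4, 41.7% in ADARB2 and in RBFOX3, and 40.0% in GSE1, against 70.0% in CDH4. Wild-type sites were all shared in HDAC4 (4 of 4) and RBFOX3 (6 of 6) too, so this was also seen outside CDH4. In PTPRN2 83.3% of them were shared, and in GSE1 and in ADARB2 71.4%.

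Genes of other classical type I cadherins, of catenins and of TFIID and related factors held 0 to 5 sites each in either list. Of 11 genes of the other classical type I cadherins and their catenins, 4 held a NTHL1-/-,NEIL1-/- site (36.4%) and 2 a wild-type site (18.2%). Across all protein-coding genes the shares were 14.0% and 5.88%. The genes with sites were mostly long, and the shares were not matched for length. CTNND2, the gene of delta-catenin and 933 kb long, held 3 and 5. CDH2, the gene of N-cadherin, held 2 and 0, and CTNNA2 and CTNNA3, genes of alpha-catenins, 1 and 0 each. CTNNA1 held 0 and 1. CDH1, CDH3, CDH15, CTNNB1, CTNND1 and JUP held none. Of the 16 other genes of TFIID and related factors, TAF1 and TAF3 held 1 site each in NTHL1-/-,NEIL1-/- cells and TAF8 held 1 in wild type. That is 12.5% and 6.25% of the genes, beside 14.0% and 5.88% of all protein-coding genes.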

How the data were processed

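Tg sites of HEK293T cells were taken from 1 deposited list per genotype, assigned by the genotype word that the list shares with the titles of the coupled libraries. The tools named are Bowtie2, MACS2, bedtools and deepTools, and the build is hg38, per the submitters' processing notes. Versions, settings and the way the coupled libraries were pooled are not stated in the sources used. The deposited fold is the caller's ratio of summit reads to background, and the deposited −log10 p and −log10 q are the caller's own (largest q 0.0489 and 0.0450). The deposited score was 10 times −log10 q, rounded down, in 100% of sites.

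Whole reads and background were solved from fold (reads plus 1 over background plus 1) and p (Poisson tail). At 100% of sites a whole number met the deposited −log10 p to within 0.001. Summit reads ranged from 6 to 452 (median 17) in NTHL1-/-,NEIL1-/- and from 6 to 405 (median 13) in wild type; the depth of the libraries is unknown. The procedure was tested on simulated lists. Genes and promoters came from RefSeq tables of GRCh38.p14, which shares primary coordinates with hg38; exons and introns were not used here. Named genes were CDH4, TAF4, genes of the window that hold a site, the 5 genes most like CDH4 in site density among those of 0.5 to 2 times its length (0.5 sites added), and members of 2 lists. The members and lists were chosen with earlier results of these data known. Each wild-type site was paired with the knockout site of largest overlap. Alternatives covered membership, q, merging, window, overlap and scaling. Python 3.11.15, NumPy 2.4.6, SciPy 1.17.1, pandas 2.3.3 and Matplotlib 3.10.9 were used.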

Additional observations from a re-analysis of the deposited data

How the results depend on the processing

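Of 46 recomputed values, 41 stayed within 1.5 times a count, within the binomial interval of a share or within the order-statistic interval of a median, and 5 did not. No paired analysis was possible because each genotype has 1 list with no value per library, and no library could be left out. With −log10 q of at least 5, which 60.4% of all NTHL1-/-,NEIL1-/- and 45.5% of all wild-type sites reach, CDH4 held 17 sites in place of 20 and 9 in place of 15. Under this limit the median distance between neighbouring sites of the window was 36.9 kb in place of 21.8 kb in the knockout list (interval of the median over all sites 13.9 to 45.9 kb) and 56.7 kb in place of 32.3 kb in wild type (13.8 to 63.3 kb). Counting the flanks over 100 kb left 4 knockout sites in place of 9, and counting them over 500 kb gave 7 wild-type sites in place of 4. When sharing required an overlap of 50% of both sites, 37.9% of knockout sites and 57.9% of wild-type sites were shared, against 21.5% and 54.7% of the whole lists. Of the 8 wild-type sites that missed this limit, 7 met it on their own side and faced a wider knockout site. Among the 8 are both wild-type sites of each of the 2 knockout sites that met 2 of them. TAF4 held no site under any alternative tried, but only counting any overlap could have added one. The others can only remove or merge sites, and their unchanged counts are among the 41. The median ratio of reads was 0.962 when scaled per bp of fragment and 1.09 from the deposited folds, so its side of 1 depends on the scaling. An alternative added after the data were seen kept knockout sites that, with reads and background divided by 1.69, still gave the lowest wild-type −log10 p: 19 remained in CDH4, and 66.7% of the 27 left in the window were shared, where 85.8% of the whole list was left and 31.5% of those sites were shared. Summit reads of 9 to 34 limit what a single site can show.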
